A study of Rattus norvegicus with 52 samples.

Results

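The 10 probe sets described here stand for 9 transcription factor genes, followed through the liver of F344 rats, an inbred strain, dosed with clofibric acid (CA), a fibrate and a ligand of the nuclear receptor PPARα. They are the receptor itself (Ppara), its partner Rxra, the lipid and bile acid receptors Nr1h3 and Nr1h4, Hnf4a, Srebf1, and the C/EBP genes Cebpa, Cebpb and Cebpd. The members were chosen by the GenBank accession that opens each probe set ID, and the rule sets no threshold on a measured value. They are 10 of 8740 non-control probe sets, with 2 for Hnf4a and 1 for each other gene. The table pairs no probe set with a gene name, so the names rest on those accessions.

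PPARα binds fatty acids and fibrates, pairs with a retinoid X receptor such as RXRα, and switches on genes of fatty acid oxidation in the liver. LXRα (Nr1h3) and FXR (Nr1h4) use the same partner and respond to oxysterols and to bile acids. HNF4α and the C/EBP proteins maintain the expression programme of hepatocytes, and SREBP-1 (Srebf1) drives genes of fatty acid synthesis. C/EBPβ and C/EBPδ are also known for their part in the acute phase response.

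Total RNA was hybridized to one-colour oligonucleotide arrays, 1 array per sample and 52 arrays in all, at CA doses of 0, 0.29 and 0.54% as labelled. How and for how long the rats were dosed is not stated. Microdissected liver, isolated from sections with a laser under a microscope (laser capture microdissection, LCM), gave 2 control arrays, 1 at 0.29% and 1 at 0.54%. Sections labelled LCM reference time and dehydrated sections gave 1 array per dose each. There were 8 control arrays of stained sections, with 7 at 0.29% and 5 at 0.54%, and 8, 8 and 6 arrays of entire sections. The labels do not name the region that was captured. In all preparations the controls are untreated rats of the same strain. The labels do not say that replicates came from separate animals, nor whether preparations share animals, so p-values measure only the spread between these samples, part of which may be technical. The 5S rRNA intensity was 97 to 754 in microdissected liver, 117 to 587 in LCM-reference-time sections, 10 to 47 in dehydrated sections, 14 to 241 in stained sections and 22 to 115 in entire sections. The GAPDH 3'/5' probe set ratio, which is higher where the 5' side of transcripts is lost, ran from 3.02 to 14.3 in microdissected liver, 2.59 to 18.9 in stained sections and 1.18 to 6.49 in entire sections. In entire sections it exceeded 4 on 3 arrays, control replicate 7 (6.25), 0.29% replicate 7 (5.07) and 0.54% replicate 5 (6.49), and these libraries stand apart in the Srebf1 values below. Markers of hepatocytes and of other liver cells could not be read, because 0 accessions of the IDs were found in the RefSeq gene table. In such bulk RNA, fewer cells of a type and less RNA per cell cannot be told apart.

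Srebf1 carried the largest called change among these probe sets in entire sections, so its promoter windows are printed. RefSeq (build GRCr8) lists a pair of start sites for rat Srebf1, and each window runs from 250 bases before a start to 50 after it, 5′ to 3′ on the minus strand of chromosome 10. Capitals mark matches to the GC box GGGCGG and to CCAAT, searched on both strands, so that CCGCCC and ATTGG are matches on the other strand.

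Srebf1, chr10:45529115-45529414: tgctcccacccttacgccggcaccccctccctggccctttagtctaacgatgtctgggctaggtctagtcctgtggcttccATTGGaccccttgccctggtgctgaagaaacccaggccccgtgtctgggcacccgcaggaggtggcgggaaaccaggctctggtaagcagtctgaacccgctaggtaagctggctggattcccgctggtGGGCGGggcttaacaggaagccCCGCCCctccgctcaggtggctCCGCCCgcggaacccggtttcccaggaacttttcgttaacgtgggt
Srebf1, chr10:45518961-45519260: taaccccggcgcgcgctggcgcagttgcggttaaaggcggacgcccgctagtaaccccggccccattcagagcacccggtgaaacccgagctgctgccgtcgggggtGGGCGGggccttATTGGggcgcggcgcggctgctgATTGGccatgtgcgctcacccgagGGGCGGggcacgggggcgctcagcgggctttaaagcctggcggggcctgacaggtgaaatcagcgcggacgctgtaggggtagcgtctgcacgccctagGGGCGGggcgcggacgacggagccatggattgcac

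The window at 45529115 holds 3 GC boxes and 1 CCAAT, and the window at 45518961 holds 3 GC boxes and 2 CCAAT matches. Among 33469 rat promoter windows of 300 bases, 33.1% hold GGGCGG and 37.5% hold CCAAT. Neither Srebf1 window holds the nuclear receptor half-site AGGTCA (in 16.2% of all windows), the E-box CACGTG (6.42%) or the C/EBP core TTGCNNAA (10.6%). The matches overlap one another at no base. RefSeq windows were at hand for 7 of the 9 genes, and AGGTCA was in none of their 9 windows. These letters describe the sequence only, and the arrays do not say which start site was in use.

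Detection differed widely between the members. An array's noise level was taken as the 95th percentile of the absolute size of its negative intensities, which lay between 30 and 111, and 13.5% to 37.8% of all probe sets exceeded it (median 29.5%). Nr1h3 was above noise on all 52 arrays, Cebpb on 51 and Nr1h4 on 47. Srebf1 was above noise on 30 arrays, and the Hnf4a probe set x57133mrna_at on 28. Those 5 probe sets formed the measurable set, each above noise on at least 50% of the arrays. Cebpa was above noise on 10 arrays, all of them entire sections, and the other Hnf4a probe set, x57133mrna_g_at, on 3. The drug's own receptor was not measurable: Ppara lay between -6 and 35 and was above noise on 0 of 52 arrays. Rxra was above noise on 1 array, at 82 in 0.29% replicate 2 of the entire sections, and Cebpd on 0, between -15 and 24. Whether CA changed Ppara, Rxra or Cebpd RNA was therefore not detectable with these probe sets, which says nothing of whether the RNAs are present.

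**Figure D1:**
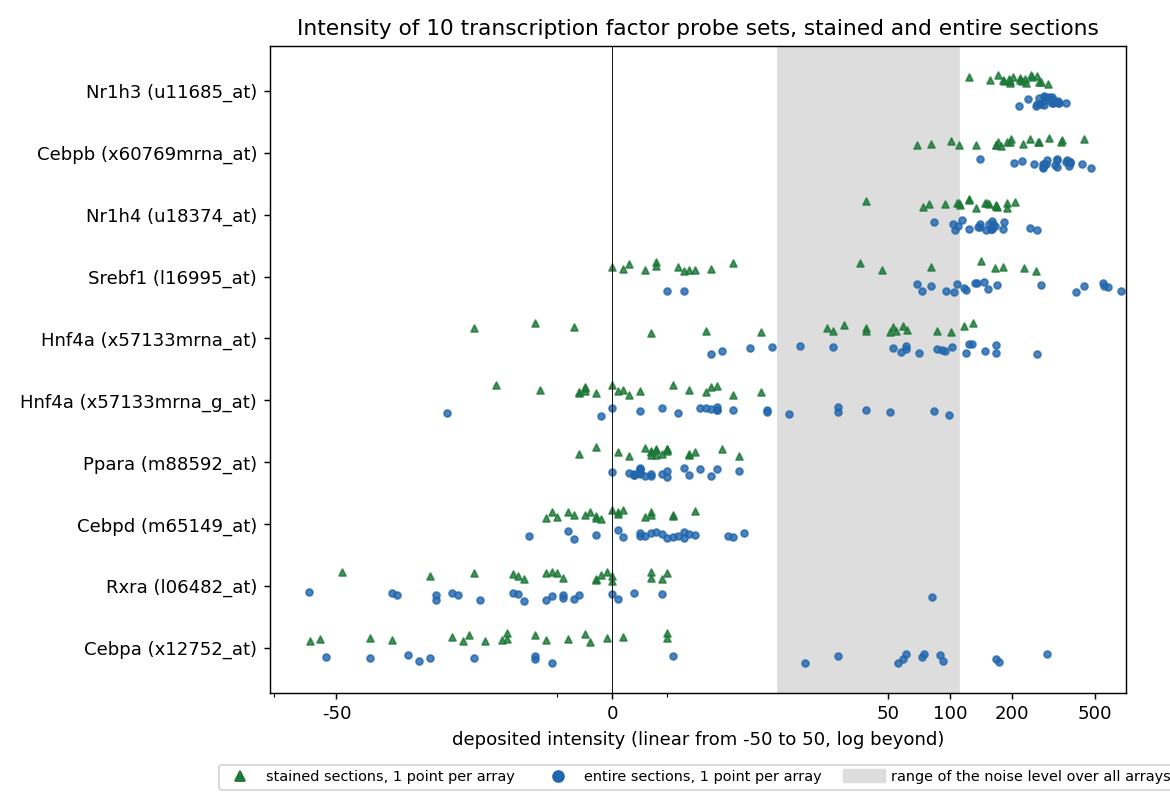
Deposited intensity (x axis, linear between -50 and 50 and logarithmic beyond) of the 10 transcription factor probe sets, 1 point per array, with stained sections as triangles above entire sections as circles. The grey band is the range of the noise level over all arrays, 30 to 111; Nr1h3, Cebpb and Nr1h4 lie mostly to its right, and Ppara, Cebpd and all Rxra points but 1 to its left.

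Intensities of different probe sets are not per transcript length and were not set against each other, so each member was placed among all probe sets of its preparation. By the median over 22 entire arrays, Cebpb stood at the 88.8th percentile, Nr1h3 at the 88th, Nr1h4 at the 82.7th, Srebf1 at the 81.4th and Hnf4a x57133mrna_at at the 74.9th. In stained sections Nr1h3 (87.8), Cebpb (87) and Nr1h4 (84.6) kept similar percentiles, while Hnf4a x57133mrna_at stood at 71.8 and Srebf1 at 55.2.

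Differences with CA were called for Srebf1, Nr1h4, Cebpb and 1 of the Hnf4a probe sets. In entire sections at 0.29% CA, 2 of the 10 probe sets passed an adjusted p of 0.05 (limma, Benjamini-Hochberg over all 7701 probe sets tested), with Srebf1 higher and Nr1h4 lower, beside 11.3% of all probe sets called. At 0.54% CA, Nr1h4 and Cebpb were lower, again 2 of 10, beside 16% of all. The median log2 fold change of the 10 was 0.50 at 0.29% and -0.31 at 0.54%, against 0 for all tested probe sets at both doses. The middle members at 0.29% were Cebpd (0.50) and Rxra (0.51), which are not measurable, so this median describes no measured shift. In stained sections 1 of 10 was called at each dose, Hnf4a x57133mrna_at higher, beside 3.62% of all 8058 at 0.29% and 6.42% at 0.54%. At 2 of 10, the members' share is near that of all probe sets in entire sections. Both doses of a preparation are set against the same controls. Between the doses, limma called 0 of the 10 in either preparation, beside 0.909% of all in entire and 0.0993% in stained sections. An unadjusted p under 0.05 was reached by 4 of the 10 in entire sections, beside 843 of all 7701. The 4 were Nr1h3, Srebf1, Cebpa and Cebpd, and Cebpd was above noise on 0 of 52 arrays. In stained sections 0 of the 10 reached it, beside 390 of all 8058. All 10 exceeded the floor somewhere in each fit and so were tested.

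Srebf1, which encodes the activator of fatty acid synthesis genes, was higher at 0.29% CA in entire sections. Its lowest, median and highest intensities were 10, 106.5 and 153 in controls (8 arrays), 69, 497.5 and 671 at 0.29% (8 arrays) and 13, 133 and 276 at 0.54% (6 arrays). Of the 8 arrays at 0.29%, 6 lay above every control, and the other two, replicates 6 and 7 at 108 and 69, lay within the control range. The log2 fold change was 2.03 ± 0.64 (SE, adjusted p = 0.0426, limma), 4.08-fold. At 0.54% it was 0.31 ± 0.69 (SE, adjusted p = 0.83), and between the doses, 0.54% minus 0.29%, it was -1.72 ± 0.69 (adjusted p = 0.336). The call at 0.29% was lost in 11 of 16 fits that left out 1 array (control replicates 3, 4, 6, 7 and 8, and 0.29% replicates 1, 2, 3, 4, 5 and 8), with log2 fold changes of 1.62 to 2.38 and adjusted p up to 0.0826.

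In stained sections Srebf1 did not pass at either dose. Its lowest, median and highest intensities were 0, 12.5 and 81 in controls (8 arrays) and 8, 22 and 261 at 0.29% (7 arrays). At 0.54% the 5 arrays gave 141, 45, 228, 6 and 180. Above every control lay 2 of 7 arrays at 0.29% and 3 of 5 at 0.54%, and the groups overlapped. The log2 fold change was 1.62 ± 0.89 (SE, adjusted p = 0.498, limma) at 0.29%, 2.52 ± 0.98 (adjusted p = 0.157) at 0.54% and 0.89 ± 1.01 (adjusted p = 0.956) for 0.54% minus 0.29%. Without 0.54% replicate 4, the array at 6, the value at 0.54% was 3.35 and passed (adjusted p = 0.0414); over all fits without 1 array it ran from 2.13 to 3.35. The median GAPDH 3'/5' ratio was 10.2 in stained controls, 7.32 at 0.29% and 4.47 at 0.54%.

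**Figure D2:**
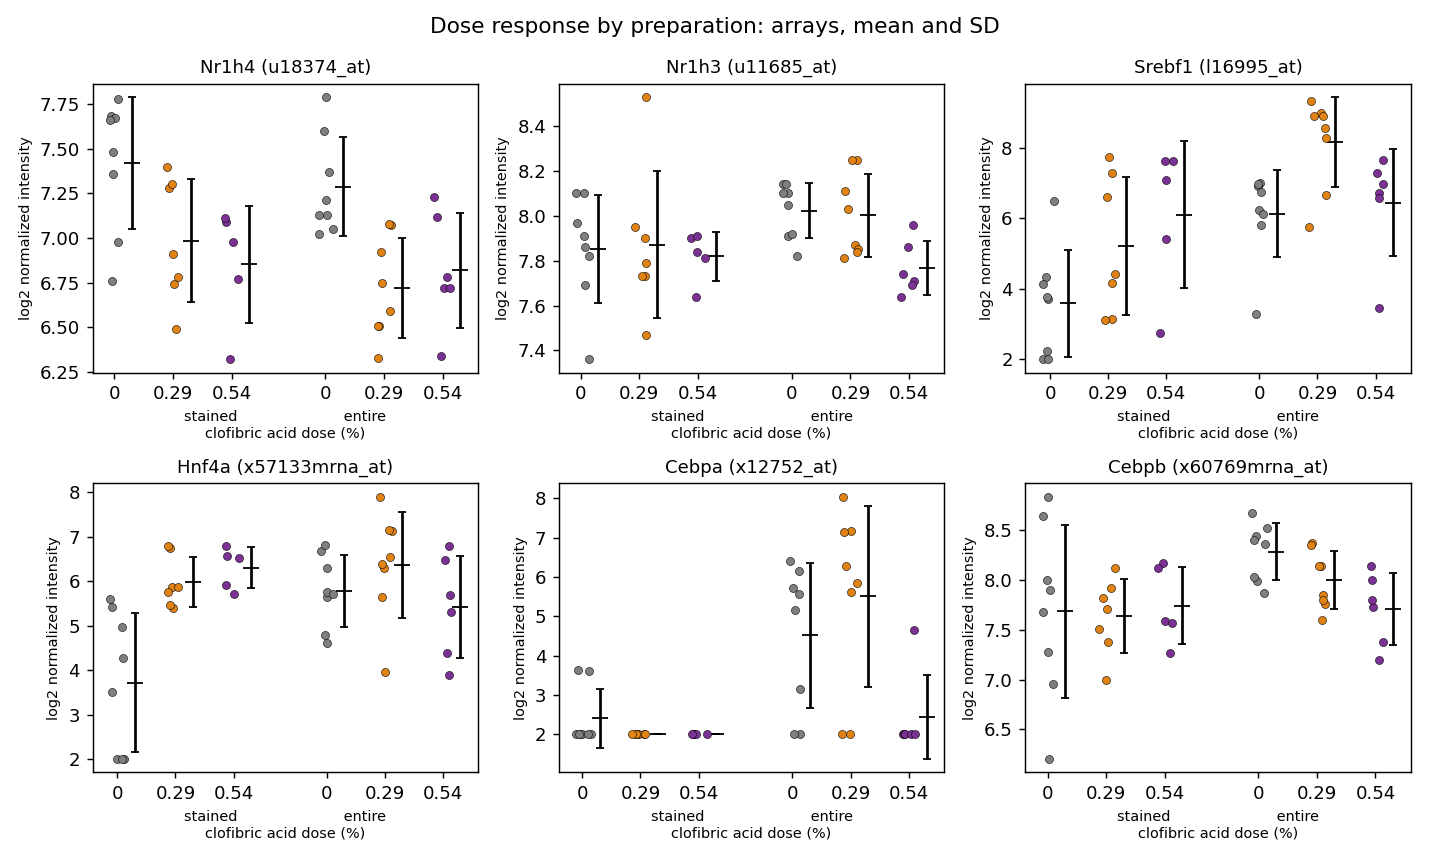
Log2 normalized intensity of 6 transcription factor probe sets at 0, 0.29 and 0.54% CA, with stained sections to the left of entire sections in each panel. Each point is 1 array, and the bar beside the points is the mean with its SD; Srebf1 in entire sections is at 8.16 ± 1.28 at 0.29% and 6.13 ± 1.23 in controls, and Cebpa lies at the floor of 2 on most stained arrays.

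The spread of Srebf1 within a dose moved with the GAPDH 3'/5' ratio. The lowest Srebf1 intensities of each group of entire sections, 10 in control replicate 7, 69 in 0.29% replicate 7 and 13 in 0.54% replicate 5, came from the 3 arrays with a ratio above 4. The next lowest at 0.29%, 108 in replicate 6, came from an array with a ratio of 2.65. Across the 22 entire arrays log2 Srebf1 and the log2 ratio had a Pearson r of -0.82 (permutation p = 1e-05, the smallest these permutations can give, adjusted 0.0002 over 20 relations) and a Spearman rho of -0.80 (permutation p = 2e-05, adjusted 0.0002). Without the 2 arrays farthest from the median ratio r was -0.59. Within a dose, r was -0.98 among 8 controls, -0.99 among 8 arrays at 0.29% and -0.96 among 6 at 0.54%. In 20 stained arrays r was -0.83 (permutation p = 3e-05, adjusted 0.0002), rho was -0.82 (permutation p = 3e-05, adjusted 0.0002) and r without the 2 farthest arrays was -0.78. Within the stained groups it was -0.88 among 8 controls and -0.63 among 7 arrays at 0.29%.

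With the log2 ratio as a covariate, a setting chosen after seeing the data, Srebf1 in entire sections was higher at both doses and higher at 0.29% than at 0.54%. Its log2 fold change there was then 1.98 ± 0.15 (SE, adjusted p = 5.84e-09, limma) at 0.29% and 1.05 ± 0.17 (adjusted p = 0.000124) at 0.54%. The difference of 0.54% minus 0.29% was -0.93 ± 0.17 (SE, adjusted p = 0.0093). In that fit 2, 3 and 1 of the 10 members were called in the same order of comparisons, beside 13.3%, 16.5% and 1% of all probe sets. Leaving out the 3 entire arrays with a ratio above 4 gave 1.97 ± 0.34 (SE, adjusted p = 0.000498) at 0.29%, 0.50 ± 0.37 (adjusted p = 0.434) at 0.54% and -1.47 ± 0.37 (SE, adjusted p = 0.0687) between the doses. The call at 0.54% thus rests on the covariate and was lacking without those arrays. In stained sections the covariate gave no call, at 0.68 ± 0.59 (SE, adjusted p = 0.742) for 0.29%, 0.91 ± 0.69 (adjusted p = 0.641) for 0.54% and 0.22 ± 0.65 (adjusted p = 0.999) for 0.54% minus 0.29%.

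**Figure D3:**
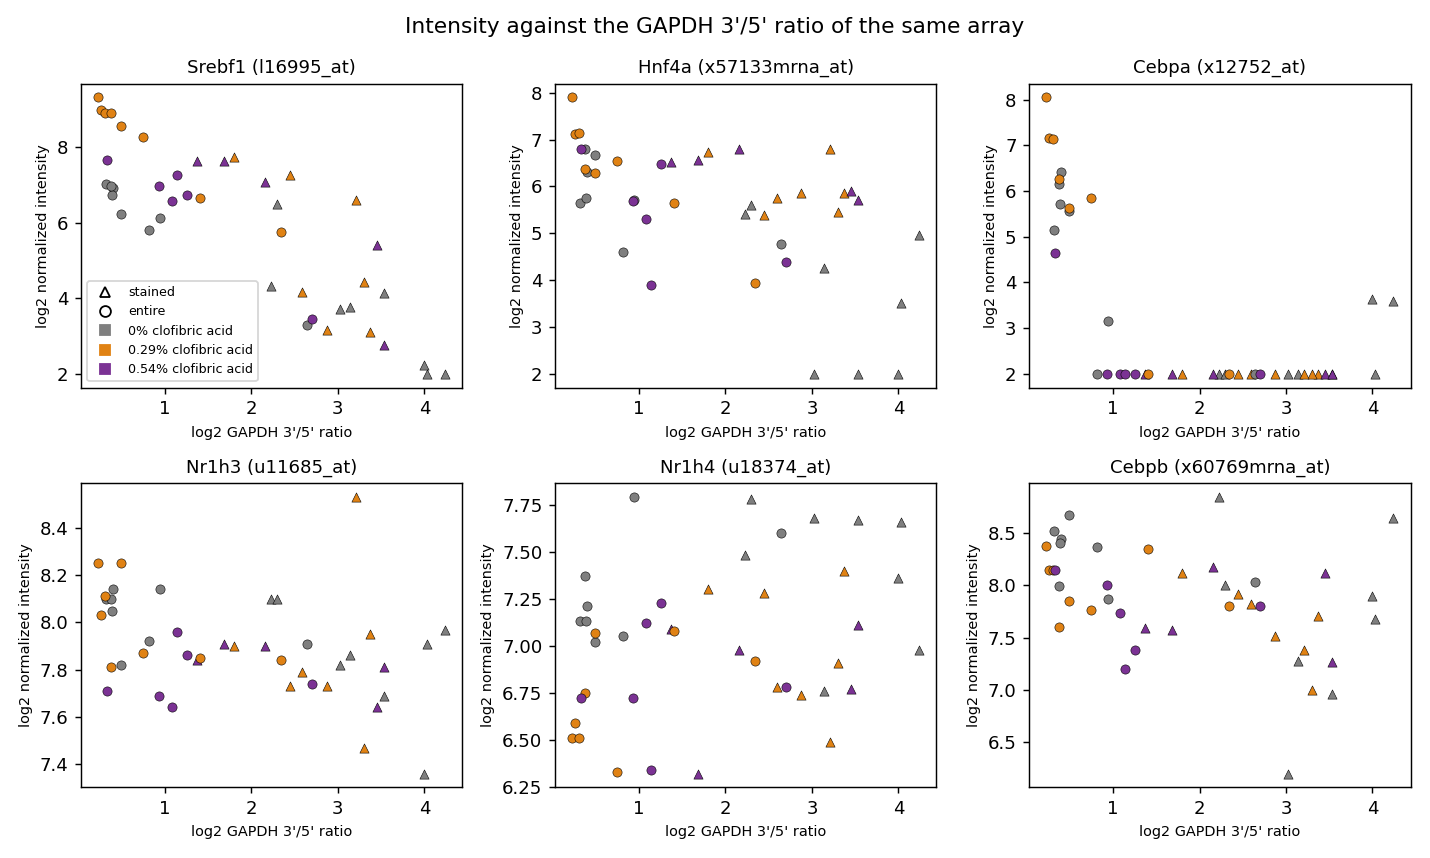
Log2 normalized intensity of 6 transcription factor probe sets (y axes) against the log2 GAPDH 3'/5' ratio of the same array (x axes), with stained sections as triangles, entire sections as circles and colours for the CA dose. In entire sections Srebf1, Hnf4a and Cebpa are lower where the ratio is higher, and at 0.29% CA Srebf1 lies above the controls of like ratio.

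The dependence on the GAPDH ratio was not shared by all members. Fitted within doses in entire sections, the slope was called for 4 of the 10 probe sets, all lower with a higher ratio, beside 12.6% of all probe sets in either direction and 6.54% lower. Per doubling of the ratio, log2 intensity changed by -1.68 ± 0.09 for Srebf1 (SE, adjusted p = 1.1e-10, limma, 22 arrays). The slope was -1.86 ± 0.35 for Cebpa (SE, adjusted p = 0.00131), and -1 ± 0.21 (adjusted p = 0.00342) and -1.14 ± 0.25 (SE, adjusted p = 0.00478) for the Hnf4a probe sets x57133mrna_at and x57133mrna_g_at. Of the 22 entire arrays, Cebpa was above noise on 10 and x57133mrna_g_at on 3, and both had values at the floor. The size of their slopes is therefore poorly fixed, and the Hnf4a probe sets stand for the same gene. The slopes of Nr1h3 (-0.07 ± 0.05, adjusted p = 0.444), Nr1h4 (0.15 ± 0.08, adjusted p = 0.297) and Cebpb (-0.11 ± 0.09, adjusted p = 0.493) did not pass. In stained sections the slope passed for 1 of 10, Srebf1 at -1.86 ± 0.34 (SE, adjusted p = 0.0318, 20 arrays), beside 0.323% of all. The ratio's part in the differences between arrays was not tested beyond these fits.

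**Figure D4:**
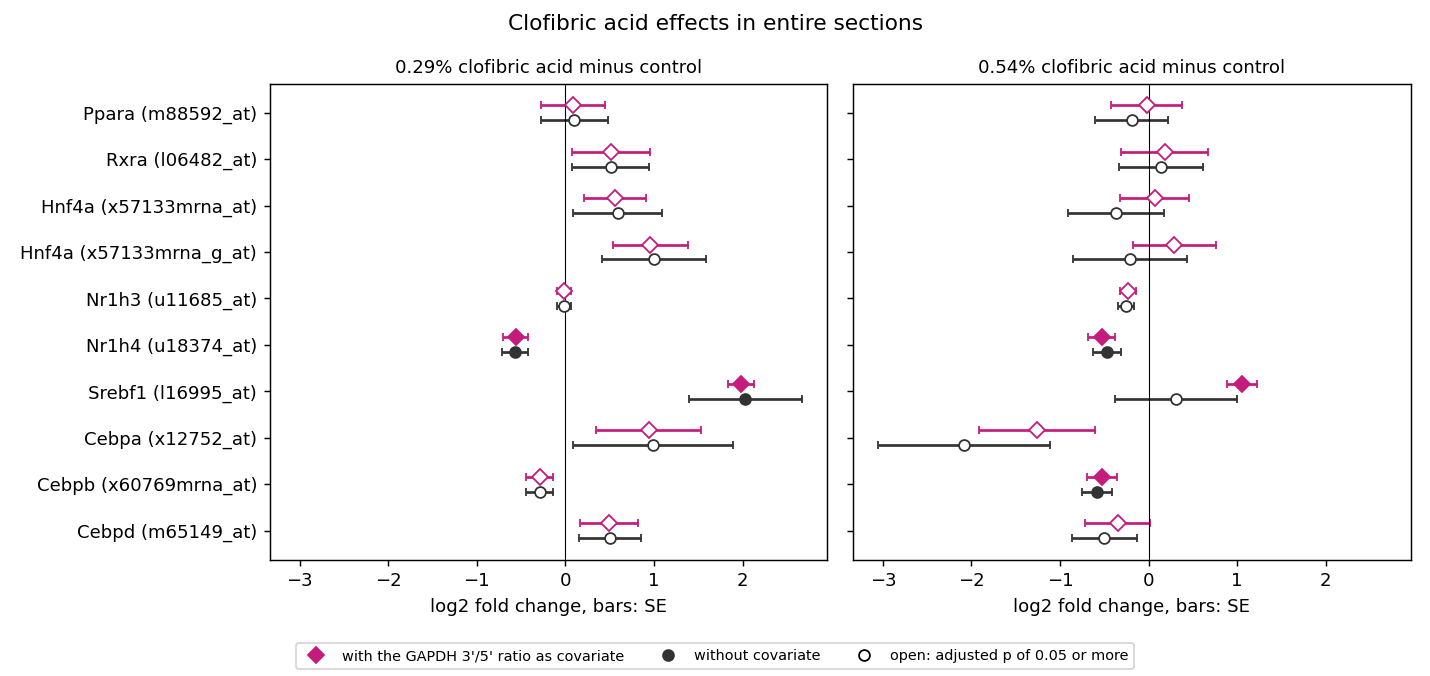
Log2 fold change of 10 transcription factor probe sets in entire sections (x axes, bars SE), at 0.29% CA on the left and 0.54% CA on the right, with the log2 GAPDH ratio as covariate (diamonds) and without it (circles). Filled symbols have an adjusted p under 0.05; Srebf1 at 0.54% is filled with the covariate (1.05) and open without it (0.31), and Nr1h4 is filled in all 4 fits.

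Nr1h4, which encodes the bile acid receptor FXR, was lower under CA in entire sections at both doses. Its lowest, median and highest intensities were 155, 163.5 and 262 in controls (8 arrays), 103, 119 and 159 at 0.29% (8 arrays) and 84, 139.5 and 183 at 0.54% (6 arrays). The groups overlapped, but 6 of 8 arrays at 0.29% and 4 of 6 at 0.54% lay below every control. The log2 fold change was -0.57 ± 0.15 (SE, adjusted p = 0.0121, limma) at 0.29%, and -0.47 ± 0.16 (adjusted p = 0.0469) at 0.54%. With the GAPDH ratio as a covariate the values were -0.56 ± 0.14 (SE, adjusted p = 0.00814) and -0.53 ± 0.15 (adjusted p = 0.0199). The call at 0.54% lay near the threshold: it was lost in 10 of 14 fits that left out 1 array (control replicates 1, 2, 3, 5, 6 and 7, and 0.54% replicates 1, 2, 5 and 6), with log2 fold changes of -0.55 to -0.37 and adjusted p up to 0.113, and without the 3 arrays with a ratio above 4 (-0.42 ± 0.18, SE, adjusted p = 0.134).

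In stained sections Nr1h4 had intensities of 79, 166.5 and 205 (lowest, median and highest of 8) in controls and 46, 124 and 189 (of 7) at 0.29%. At 0.54% the 5 arrays gave 133, 112, 150, 148 and 74. All 5 arrays at 0.54% lay below the control median, within an overlapping range. The log2 fold changes were -0.44 ± 0.19 (SE, adjusted p = 0.317, limma) and -0.57 ± 0.21 (adjusted p = 0.127) and did not pass. The difference of the CA effect between stained and entire sections was 0.13 ± 0.23 at 0.29% and -0.10 ± 0.26 at 0.54% (SE, adjusted p = 1 and 0.925).

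Nr1h3, which encodes the oxysterol receptor LXRα, varied least of the 5 measurable probe sets in entire sections, with an SD of 0.12 to 0.19 on the log2 scale within a dose. There its lowest, median and highest intensities were 276, 309.5 and 337 in controls (8 arrays), 259, 312 and 365 at 0.29% (8 arrays) and 216, 270.5 and 283 at 0.54% (6 arrays). At 0.54%, 4 of 6 arrays lay below every control. Its log2 fold change was -0.02 ± 0.08 (SE, adjusted p = 0.929, limma) at 0.29% and -0.26 ± 0.09 (adjusted p = 0.0626) at 0.54%, where it missed the threshold. It passed there without control replicate 4 or 0.54% replicate 6 (adjusted p = 0.0429 and 0.0353), with a floor of 20 (0.026), with the noise filter (0.0396) and with array weights (0.00792), which also gave a call for 0.54% minus 0.29% (-0.29, adjusted p = 0.0432). In stained sections the log2 fold changes were 0.02 ± 0.15 and -0.03 ± 0.16 (SE, adjusted p = 0.993 and 0.952).

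Hnf4a, whose product is a regulator of hepatocyte genes, was higher under CA in stained sections by probe set x57133mrna_at. Its intensities there were -25, 12 and 42 (lowest, median and highest of 8) in controls and 40, 53 and 129 (of 7) at 0.29%. At 0.54% the 5 arrays gave 117, 62, 101, 51 and 86. All 5 arrays at 0.54% and 6 of 7 at 0.29% lay above every control. The log2 fold change was 2.26 ± 0.54 (SE, adjusted p = 0.0176, limma) at 0.29% and 2.58 ± 0.59 (adjusted p = 0.00963) at 0.54%. Only 1 of 8 stained controls was above noise and 3 were at the floor, so the size of these changes is poorly fixed. With the GAPDH ratio in the fit, whose medians in these groups are given for Srebf1, the values were 1.96 ± 0.52 (SE, adjusted p = 0.0446) and 2.07 ± 0.61 (adjusted p = 0.0688), so the call at 0.54% was lost. Without the 3 stained arrays whose 5S rRNA signal exceeded 200 they were 2.20 ± 0.61 (SE, adjusted p = 0.0546) and 2.59 ± 0.69 (adjusted p = 0.0349), and the call at 0.29% was lost.

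In entire sections the same probe set had intensities of 29, 61 and 127 in controls (8 arrays), 20, 107.5 and 262 at 0.29% (8 arrays) and 18, 55.5 and 147 at 0.54% (6 arrays). The ranges overlapped, and the log2 fold changes of 0.59 ± 0.50 and -0.37 ± 0.54 did not pass (SE, adjusted p = 0.571 and 0.725, limma). The stained effect minus the entire effect was 1.67 ± 0.75 at 0.29% (SE, adjusted p = 0.961) and 2.94 ± 0.82 at 0.54% (adjusted p = 0.169), so a difference between the preparations was not shown. Probe set x57133mrna_g_at, of the same accession, had log2 fold changes of 0.59 ± 0.52 and 1.04 ± 0.57 in stained sections (SE, adjusted p = 0.741 and 0.361). It was above noise on 0 of 20 stained arrays. The Pearson r between the log2 values of both probe sets was 0.93 over 22 entire arrays and 0.46 over 20 stained arrays, a description of probe sets that share a transcript and each array's RNA.

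Of the C/EBP genes, Cebpb was lower at 0.54% CA in entire sections. Its lowest, median and highest intensities were 280, 374 and 481 in controls (8 arrays), 222, 311 and 378 at 0.29% (8 arrays) and 140, 268 and 374 at 0.54% (6 arrays). The ranges overlapped, with 3 of 6 arrays at 0.54% below every control and 0 of 6 above the control median. The log2 fold change was -0.29 ± 0.15 (SE, adjusted p = 0.302, limma) at 0.29% and -0.58 ± 0.17 (adjusted p = 0.0194) at 0.54%. With the GAPDH covariate it was -0.53 ± 0.17 (SE, adjusted p = 0.0355) at 0.54%. The call was lost without 0.54% replicate 3 (-0.51, adjusted p = 0.0518) or replicate 6 (-0.48, adjusted p = 0.0535). In stained sections, where controls ran from 69 to 445, the log2 fold changes were -0.05 ± 0.32 and 0.06 ± 0.35 (SE, adjusted p = 0.987 and 0.964).

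Cebpa, which encodes the C/EBPα of mature hepatocytes, was above noise on 4 of 8 control arrays, 6 of 8 at 0.29% and 0 of 6 at 0.54% in entire sections. Its lowest, median and highest intensities were -35, 50 and 92 in controls, -44, 81 and 294 at 0.29% and -56, -23.5 and 35 at 0.54%. In the fit of the 22 entire arrays the differences did not pass, at log2 values of 0.99 ± 0.90 at 0.29%, -2.08 ± 0.97 at 0.54% and -3.07 ± 0.97 for 0.54% minus 0.29% (SE, adjusted p = 0.588, 0.166 and 0.179, limma). With array weights the difference between doses passed (-3.58, adjusted p = 0.0141), and that of 0.54% against control passed too (-2.32, adjusted p = 0.0391). The difference between doses also passed with other groups in the fit (-3.07 ± 0.74, SE, adjusted p = 0.0415). Among those groups, Cebpa was at the floor on 7 of 7 stained arrays at 0.29% and 5 of 5 at 0.54%, with an SD of 0. Such groups lower the pooled spread, so this call adds nothing about the entire arrays. A bound from the sample means is far smaller than the fitted differences. It put Cebpa 1.01-fold lower at 0.54% than at 0.29%, taking the lowest signal above noise where a value at 0.54% lay under it. At 0.29%, 2 of 8 arrays stood at the floor, and the bound allows for no spread, so no measured fold follows. The median GAPDH ratio was 1.36 in controls, 1.34 at 0.29% and 2.17 at 0.54%, and the highest Cebpa value at 0.54%, 35, came from the array with the lowest ratio there, 1.25. With the ratio as a covariate the value for 0.54% minus 0.29% was -2.20 ± 0.66 (SE, adjusted p = 0.149).

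Staining went with lower values of 4 probe sets in untreated liver. In stained against entire controls, Srebf1, Cebpa and both Hnf4a probe sets were lower, 4 of 10, beside 30.3% of all 8253 probe sets called in either direction and 13.4% called lower. The members' median log2 difference was -0.53, against 0.10 for all probe sets. The middle members were Cebpb (-0.60 ± 0.24, SE, adjusted p = 0.0565, limma), which missed the threshold, and Cebpd (-0.47), which is not measurable. This median therefore describes no measured shift of the set. Srebf1 had intensities of 0, 12.5 and 81 in stained controls, against 10, 106.5 and 153 in entire controls (lowest, median and highest of 8 each), a log2 difference of -2.55 ± 0.77 (SE, adjusted p = 0.0102, limma). Hnf4a x57133mrna_at differed by -2.06 ± 0.52 (SE, adjusted p = 0.00228), with 6 of 8 stained controls below every entire control. Srebf1 and this probe set were each above noise on 1 of 8 stained controls, with 2 and 3 at the floor, so the size of both differences is poorly fixed. Cebpa was above noise on 0 of 8 stained and 4 of 8 entire controls, and its fitted difference of -2.12 ± 0.68 (SE, adjusted p = 0.016) gives no measured fold. The other Hnf4a probe set, at -1.46 ± 0.56 (SE, adjusted p = 0.0451), was above noise on 0 controls of either kind, and its call held in 3 of 16 fits that left out 1 array, those without entire control replicate 7 or 8 or stained control replicate 3 (log2 differences of -1.75 to -1.25 over the 16 fits).

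The GAPDH ratio separated the same samples, with a median of 10.2 in stained and 1.36 in entire controls. With it as a covariate none of those 4 calls remained: the differences were 1.89 ± 0.59 for Srebf1 (SE, adjusted p = 0.0533, limma), 0.03 ± 0.90 for Cebpa (0.995), -0.04 ± 0.63 for Hnf4a x57133mrna_at (0.987) and 0.67 ± 0.69 for x57133mrna_g_at (0.733). Staining and the ratio cannot be told apart beyond the few arrays where their ranges meet. Nr1h4 differed by 0.14 ± 0.16 (SE, adjusted p = 0.578) and Nr1h3 by -0.17 ± 0.11 (adjusted p = 0.257) between stained and entire controls after normalization, although every stained control had a lower deposited Nr1h3 intensity (124 to 270) than every entire control (276 to 337). The CA effect differed between stained and entire sections for 0 of the 10 probe sets at either dose (limma), beside 0.0848% of all at 0.29% and 0.133% at 0.54%. Hnf4a x57133mrna_at alone had an unadjusted p under 0.05 at each dose (1 of 10). Of all 8253 probe sets, 394 had one at 0.29% and 810 at 0.54%.

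Microdissected liver had 2 CA arrays and 2 control arrays, and its tests assume that lone arrays vary like the rest. Of the 10 probe sets, 2 were called, Nr1h4 lower and Hnf4a x57133mrna_at higher under CA, beside 12.5% of all 8409. Nr1h4 had 31 at 0.29% and 68 at 0.54% CA, against 166 and 52 in the controls (log2 -1.13 ± 0.34, SE, adjusted p = 0.0234, limma). The CA values lie within or below the range of the controls on the deposited scale, and without control replicate 1, at 166, the value was -0.56 (adjusted p = 0.428). Hnf4a x57133mrna_at had 19 and 109, against 6 and -23 in the controls, at a fitted log2 difference of 3.67 ± 1.04 (SE, adjusted p = 0.0145). Only the 109 was above noise, so no measured fold follows, and the call was lost without control replicate 2 (3.22, adjusted p = 0.124) and with a floor of 20 (1.80, adjusted p = 0.125). Rxra, above noise on 0 of the 4 arrays, passed without control replicate 1 (-2.75, adjusted p = 0.0414) through a value of 17 in the remaining control.

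Srebf1 had 90 and 172 in the microdissected CA arrays, against 9 and 35 in the controls, and did not pass (log2 2.96 ± 1.56, SE, adjusted p = 0.244, limma). Both CA arrays and 0 of 2 controls were above noise. Taking the lowest signal above noise for the controls, the sample means differed by 1.89-fold or more, with no allowance for the spread between arrays. The GAPDH 3'/5' ratios of the same arrays were 6.2 and 3.02 under CA, against 14.3 and 9.22 in the controls. Against stained sections, with the doses averaged, Nr1h3 was higher in microdissected liver (log2 0.35 ± 0.12, SE, adjusted p = 0.047) and Nr1h4 lower (-0.58 ± 0.20, SE, adjusted p = 0.0449), 2 of 10 beside 13% of all. Nr1h3 had 144, 259, 178 and 105 on the microdissected arrays (0.29%, 0.54% and the controls), within the stained range of 124 to 297 but for the lowest. Its deposited median was lower in microdissected liver, at 161 against 219 in stained sections, so it was higher only after normalization. Its mean log2 values, microdissected against stained, were 7.89 and 7.85 in controls, 8.44 and 7.87 at 0.29%, and 8.25 and 7.82 at 0.54%. The difference thus lay in the CA groups, with 1 microdissected array each. Both calls were lost without microdissected control replicate 2 (0.36, adjusted p = 0.085, and -0.39, adjusted p = 0.269), and that of Nr1h3 also without replicate 1 (0.34, adjusted p = 0.0653). Trimmed-mean scaling, other groups in the fit and array weights also ended both calls (adjusted p = 0.0934, 0.183 and 0.0519 for Nr1h3, and 0.061, 0.139 and 0.0572 for Nr1h4). That of Nr1h3 was further lost with the floor before normalization (0.0513) and with the noise filter (0.0702).

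Single arrays of the other preparations were not tested. In LCM-reference-time sections Srebf1 was -12, 225 and 83 at 0, 0.29 and 0.54% CA, with GAPDH ratios of 7.28, 3.12 and 4.7. In dehydrated sections it was 35, 19 and 17, with ratios of 6.36, 11.8 and 14.3. These 3 values lay below the noise levels of their arrays, 40, 48 and 33, and so give no direction. The -12 also lay below the noise level of its array, 82. The 2 highest of these 6 Srebf1 values came from the 2 arrays with the lowest ratios. Hnf4a x57133mrna_at was -35, 19 and 98 in LCM-reference-time sections and 57, -18 and 10 in dehydrated sections, where only the 98 and the 57 were above noise. Nr1h4 was 35, 48 and 63 and then 180, 215 and 132 in the same order. In LCM-reference-time sections its values at 0 and 0.29% lay below the noise levels of their arrays, 82 and 57, so they give no direction. In dehydrated sections Nr1h4 was not lower at 0.29% than at 0.

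**Figure D5:**
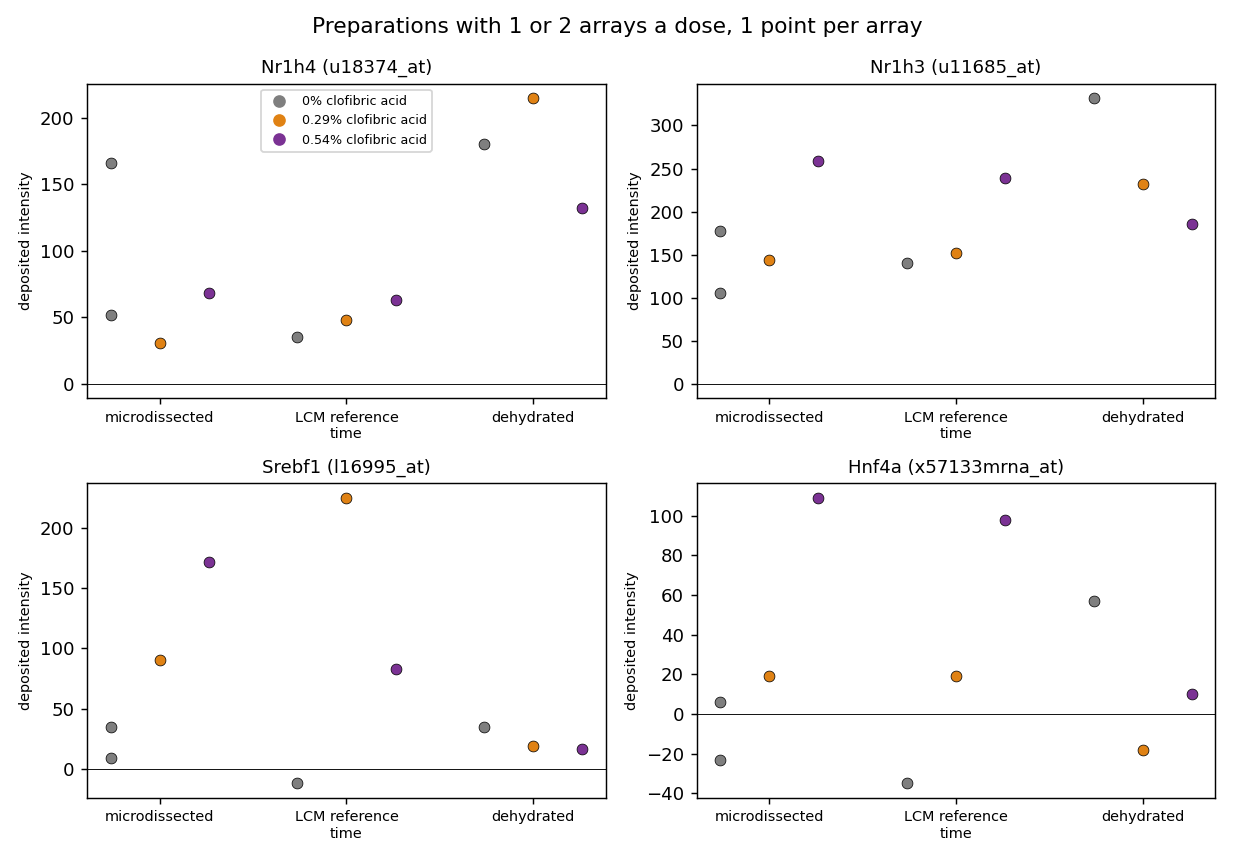
Deposited intensity (y axes) of 4 transcription factor probe sets in microdissected liver, LCM-reference-time sections and dehydrated sections (x axes), 1 point per array, coloured by CA dose. Srebf1 is at 90 and 172 in the microdissected CA arrays and at 9 and 35 in the controls, and Nr1h4 is highest among the microdissected arrays in a control, at 166.

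For each of the 5 probe sets above noise on most arrays, the probe sets most like it were sought among 2469 others by Pearson r over the 15 group means of log2 intensity. The files give them no name. Nr1h4 was followed most closely by af012714_at (r = 0.931) and m86912exon_g_at (0.928), and Nr1h3 by rc_aa891812_g_at (0.907) and af003926_at (0.844). Srebf1 was followed by rc_ai172452_at (0.895) and aj006064_at (0.883), and Hnf4a x57133mrna_at by d50564_at (0.873) and l11694_at (0.864). Cebpb had d63411_s_at (0.832) and z36980_at (0.768). The 15 means share arrays of uneven number and of differing RNA quality, and the values describe likeness alone.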

How the data were processed

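RNA of 52 samples was measured on one-colour arrays. The deposited values are linear intensities in whole numbers, including negative ones, for 8799 probe sets, of which 59 controls were left out of the tests. How the authors scaled them is not given in the sources used here. Intensities of the 8740 other probe sets were quantile normalized between all arrays on the linear scale, raised to a floor of 4 (the 10th percentile of positive intensities) and converted to log2. Comparisons used limma 3.58.1 (R 4.3.3; linear model, empirical Bayes moderation, two-sided), with Benjamini-Hochberg adjustment at 0.05 over every probe set that exceeded the floor on 1 or more of the arrays fitted. Entire and stained sections were fitted apart, with both together for contrasts between them, and with all 15 groups for microdissected liver. Correlations used 100000 permutations (SciPy 1.17.1, Python 3.11.15), and plots matplotlib 3.10.9. The fit was tested on simulated data. The number of arrays limits precision.

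All probe sets of the 9 genes are named, with the 2 most alike for each measurable member. The members were picked by accession with no threshold on values, but they and the lists were chosen with earlier results of these data known. Lists of pathway genes and cell type markers could not be used, since no probe set could be matched to them. Alternatives were a floor of 20, the floor before normalization, trimmed-mean scaling and a noise filter. Further ones were other groups in the fit, array weights and the replicate number as a block. Other groups meant all 15 groups for contrasts of entire and stained sections, but only the stained and microdissected groups for microdissected liver. Each array of the compared groups was also left out in turn. For microdissected liver only its 2 control arrays were left out, and never a CA or stained array. Chosen after seeing the data were a covariate, the log2 GAPDH 3'/5' ratio, and the removal of 6 arrays in doubt. In no pair of groups did all same-numbered samples vary together, with lowest correlations of -0.43 to -0.04, but many did in 2 pairs. For the lower CA dose and controls in stained sections, the median was 0.47, and 6 of 7 exceeded 0.1. In entire sections it was 0.2, with 6 of 8 over 0.1 and 5 of 8 highest with their own number. Medians of the other pairs ran from -0.03 to 0.1. The numbers were used only as the block named above, not as pairs in the main fits. Whether same-numbered samples share an animal was not tested.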

Additional observations from a re-analysis of the deposited data

Results flagged for a closer look

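In groups of 4 to 10 arrays, 5 of 60 sets of values held 1 array far from its group, where chance gives about 5%. In stained controls, Srebf1 was 81 on replicate 4, against at most 18 on the other arrays, and that array's GAPDH 3'/5' ratio was 4.89, beside a group median of 10.2. In stained sections at 0.29% CA, Hnf4a x57133mrna_at was 129 on replicate 4, against at most 59 on the others, and its GAPDH ratio of 3.48 was the lowest of the group. Rxra was 82 on replicate 2 of the entire sections at 0.29% CA, where the next value was -9, and -49 on replicate 3 of the stained controls, where the next was -17. Ppara was 20 on replicate 2 of the stained sections at 0.29% CA, where the next value was 10. The last 2 of these values lie below the noise level.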

How the results depend on the processing

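Counts of called probe sets over the whole table moved by more than 1.5 times as follows. For 0.54% against 0.29% CA in entire sections (70), they were 131 with a floor of 20, 106 with the noise filter, 41 with other groups in the fit, 328 with array weights, and 32 to 114 without 1 array. Other groups in the fit gave 544 (against 872) at 0.29% and 780 (against 1230) at 0.54% in entire sections, and 545 (against 292) and 950 (against 517) in stained sections. Array weights gave 1917 at 0.54% in entire and 458 at 0.29% in stained sections. The GAPDH covariate gave 323 at 0.54% in stained sections and 404 (against 2504) for stained against entire controls. Between doses in stained sections (8) the counts were 5 with the floor first, 19 with other groups, 17 with weights, 2 with the covariate, 3 without the arrays in doubt and 1 to 9 without 1 array. For the stained minus entire effect at 0.29% (7) they were 17, 16 and 18, and at 0.54% (11) 31, 21 and 23, with a floor of 20, with weights and without the arrays in doubt, beside 6 with the covariate at 0.54%, and 6 to 17 and 7 to 21 without 1 array. For CA in microdissected liver (1055) they were 531 with the noise filter, 495 with other groups, 325 with weights and 702 to 1140 without 1 array, and for microdissected against stained (1095) 515, 590 and 667 to 1518. The share of higher calls there (56.9%) was 68.8% with trimmed-mean scaling, 71.9% with a floor of 20 and 23.9% with the noise filter, so its direction depends on the processing. Between doses in stained sections (37.5%) it was 50% with trimmed-mean scaling and 27.3% with the noise filter.

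Among the members, 3 called differences of stained against entire controls changed sign with the covariate, and none of them passed. The values were 1.89 ± 0.59 for Srebf1, 0.03 ± 0.90 for Cebpa and 0.67 ± 0.69 for Hnf4a x57133mrna_g_at (SE, adjusted p = 0.0533, 0.995 and 0.733, limma). A reversal was thus not shown, and the cause was not tested. The calls of Srebf1 at 0.29% and of Nr1h4 and Cebpb at 0.54% in entire sections were lost with other groups in the fit (adjusted p = 0.14, 0.115 and 0.199, limma), where the spread is pooled, and that of Nr1h4 at 0.54% also with trimmed-mean scaling (0.0744). With the replicate number as a block the counts between doses were 202 in entire and 0 in stained sections, Nr1h4 at 0.54% lost its call (-0.44, adjusted p = 0.102), and Cebpa at 0.54% (-2.73, adjusted p = 0.0131) and between doses (-3.72, adjusted p = 0.0156) and Srebf1 between doses (-2.12, adjusted p = 0.0426) gained one in entire sections. It gave a call for Cebpb in stained against entire controls (-0.60, adjusted p = 0.0296). So did trimmed-mean scaling (adjusted p = 0.0356), the noise filter (0.0349), array weights (0.0413) and 4 of 16 fits without 1 array. Cebpb did not pass there with the GAPDH covariate (-0.31, adjusted p = 0.773) or without the arrays in doubt (-0.58, adjusted p = 0.106). The block ended the calls of Nr1h3 and Nr1h4 between microdissected and stained liver (adjusted p = 0.107 and 0.138). In microdissected liver, array weights ended both calls between CA and control (adjusted p = 0.345 for Hnf4a and 0.343 for Nr1h4). Other groups in the fit, here only the stained and microdissected ones, also ended that of Nr1h4 (adjusted p = 0.101). A floor of 20 called Ppara higher under CA (0.78, adjusted p = 5.46e-10) and higher than in stained sections (0.71, adjusted p = 1.05e-15, limma). Ppara was above noise on 0 of the 4 microdissected arrays, with 35 as its highest value, so these calls describe no measured change. Signal over background limits Ppara, Rxra and Cebpd throughout.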
